A study of Homo sapiens with 4 samples.

Results

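The array of untreated cells describes the microRNA (miRNA) content of LNCaP cells before any androgen was given. LNCaP is an established human prostate adenocarcinoma line with an androgen receptor. The cells had spent 24 hours without androgen, in medium whose 10% serum was charcoal-stripped to remove steroids. They then received 0 nM of R1881, a synthetic androgen, which the other cultures of the study received at 0.1, 1 or 10 nM. A custom 1-colour CombiMatrix array read 10 µg of their total RNA, which carried the dye Cy3. The 455 probes whose names give a human miRNA without the tag for mismatched bases were taken from the 1406 probes of that array, and each has 1 mean signal. The labels speak of 474 human miRNAs, and 455 such probes were found. The series holds 4 arrays, and 1 of them is of untreated cells, so no value below has a replicate, and the number of arrays limits the precision. The depth of an array is not a count, and no interval was computed.

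MiRNAs are short RNAs that guide Argonaute proteins to messenger RNAs. They pair mainly through the seed, bases 2 to 8 from the 5′ end, so miRNAs with 1 seed form a family with overlapping targets. Many miRNA genes lie in clusters and are transcribed as 1 precursor. The let-7 family is known for holding back proliferation genes such as RAS and HMGA2, the miR-200 family for keeping the epithelial state by targeting ZEB1 and ZEB2, and the miR-17 family for promoting proliferation.

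The mature sequences below are those of the brightest families, where most of the signal lay, and they show which probes had near-identical targets. They are RefSeq sequences of build GRCh38.p14, matched by miRNA name, written 5′ to 3′ with the seed in capitals, and the sequences of the probes themselves were not used here. Of the 62 detected miRNAs, 59 were matched.
miR-125b: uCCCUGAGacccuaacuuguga
miR-125a: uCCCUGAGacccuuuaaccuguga
miR-99a: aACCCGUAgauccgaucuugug
miR-100: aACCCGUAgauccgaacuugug
miR-99b: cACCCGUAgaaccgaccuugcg
let-7a: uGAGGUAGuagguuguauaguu
let-7c: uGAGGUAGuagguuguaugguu
let-7d: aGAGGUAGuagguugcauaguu
let-7f: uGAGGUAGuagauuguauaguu
let-7b: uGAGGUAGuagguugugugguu
let-7g: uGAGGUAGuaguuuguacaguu
let-7e: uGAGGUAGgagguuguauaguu
let-7i: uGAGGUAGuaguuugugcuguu
miR-98: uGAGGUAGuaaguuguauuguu

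The sequence of miR-125b is encoded at chr11:122099809-122099830 on the minus strand, within the long noncoding RNA gene MIR100HG, and at chr21:16590253-16590274 on the plus strand, within MIR99AHG. That of miR-99a lies at chr21:16539101-16539122, plus strand, and that of let-7c at chr21:16539838-16539859, plus strand, both within MIR99AHG. The sequence of miR-100 lies at chr11:122152275-122152296, minus strand, and 1 of the 3 copies of let-7a at chr11:122146568-122146589, minus strand, both within MIR100HG. Copies of a gene with 1 mature sequence cannot be told apart on the array.

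Signals were read as net signal, the mean signal minus the median of the array's probes with 2 mismatched bases, which was 372. A miRNA counts as detected when its mean signal exceeded 518.8, the mismatch median plus 3 scaled median absolute deviations (MAD), which is a net signal of 146.8. By that rule 62 of 455 human miRNAs, 13.6%, were detected, and 393 were not. With a mean signal of at least 2 times that of the own mismatch probe asked for as well, 37 were. Both mean signals include the background, so this also leaves out dim miRNAs such as miR-15a, whose mismatch probe had a net signal of 0. Of the mismatch probes with a value, 0.667% passed the same threshold, a share largely fixed in advance because these probes set it. Of 223 mouse and rat miRNA probes 8.97% did, and of 107 viral and worm probes 1.87%. The share of a miRNA is its net signal over the summed net signal of all 455, with values below 0 set to 0. The detected miRNAs held 88.9% of that sum. Brightness also depends on the probe, so a share is a share of signal and not of molecules.

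Signal was concentrated in very few miRNAs. MiR-125b, which lies in a family known to target regulators of apoptosis, had a net signal of 16215.75 and 19.1% of the sum. MiR-99a, of a family known to target mTOR, followed at 9827.25, and let-7a at 5287.5. Together these 3 held 36.9% of the signal, the brightest 10 held 57.8% and the brightest 20 held 71.0%. The share of the brightest 10 was 37.8% with normexp background correction and 21.3% with no background subtracted. Normexp was run with an offset of 50 added to every probe, and a constant in every probe lowers this share. Of all miRNAs, 2 sufficed for 25% of the signal, 7 for 50% and 25 for 75%. Among detected miRNAs the median net signal was 479.1, so miR-125b stood 33.8-fold above the median, while 16 miRNAs reached 1000, 29 reached 500 and 53 reached 200.

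**Figure D1:**
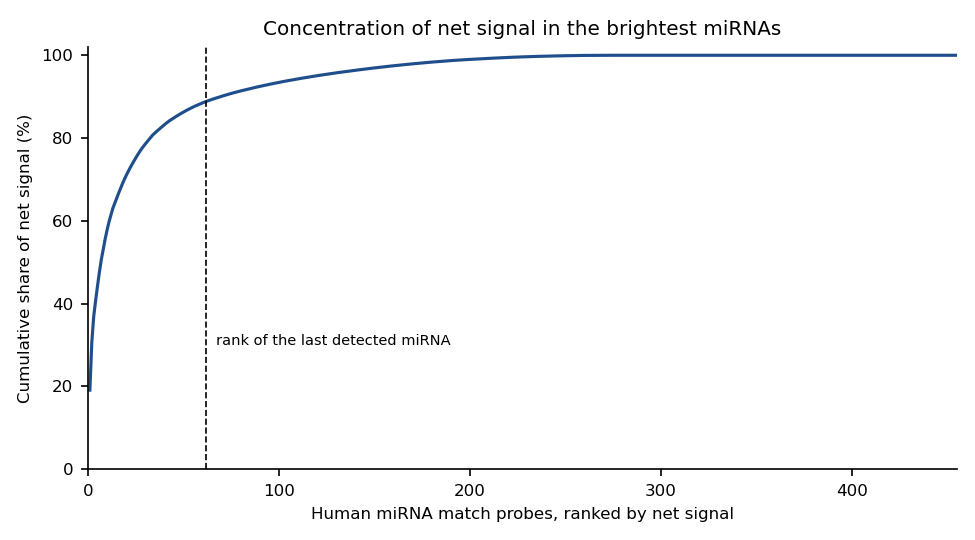
Cumulative share of net signal in percent (y axis) over the 455 human miRNA probes ranked by net signal (x axis) on the untreated array; the dashed line marks the 62nd and last detected miRNA. The curve passes 50% at the 7th miRNA and stands at 88.9% at the dashed line.

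The places behind let-7a were taken by let-7d at 3280.5, miR-100 at 3037.75, let-7c at 2859.5 and let-7f at 2561.75. MiR-191 had 2118.25, and miR-200a had 2075. MiR-103 and miR-107, which lie in introns of the pantothenate kinase genes PANK3, PANK2 and PANK1, had 1848 and 1658.75. They were followed by miR-574 at 1405.5, miR-200c at 1374, miR-21, an oncogenic miRNA of many tumours, at 1039.5, and let-7b at 1023.5. MiR-30b at 1015.25, miR-200b at 992, miR-29b at 945.75, miR-29a at 905.25 and miR-26a at 841 completed the brightest 20.

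Each probe has 1 deposited mean and no spread, so the nearest to repeat measurements on the array are mouse or rat probes that carry the name of a human probe. In 10 such pairs, of 9 miRNAs, both probes were detected, and they differed by a median of 0.53 on the log2 scale, or 1.44-fold (0.25 on the log2 scale with no background subtracted). The pairs that differed most were miR-20b, at 469.75 for the human and 210.25 for the rat probe, miR-99a, at 9827.25 for the human and 4625 for the mouse probe, and miR-324-5p, at 171.5 and 268.25 for human and mouse. Next came miR-106a, at 783.5 and 511.75, and miR-93, at 240 and 357.75, again human and mouse. MiR-203 was detected by its human probe, at 466.75, but not by its mouse probe, at 102.5, and miR-497 by its human probe, at 164.5, but not by its rat probe, at 120.5. Such probes may differ in design, so this spread is a yardstick and not a replicate error. Measured by it, 58 of the 61 steps between neighbouring ranks of detected miRNAs were no larger than 0.53. The steps below miR-125b, miR-99a and let-7a were larger, at 0.72, 0.89 and 0.69. The yardstick is a median, however, and the human and mouse probes of miR-99a differed by 1.09, more than any of these steps. The mouse probe of miR-99a lay below the human probe of let-7a, at 5287.5, but above the mouse probe of let-7a, at 3794. The order of the miRNAs from let-7d downwards is therefore not resolved between neighbours. The order of miR-125b, miR-99a and let-7a is not settled by this yardstick either.

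**Figure D2:**
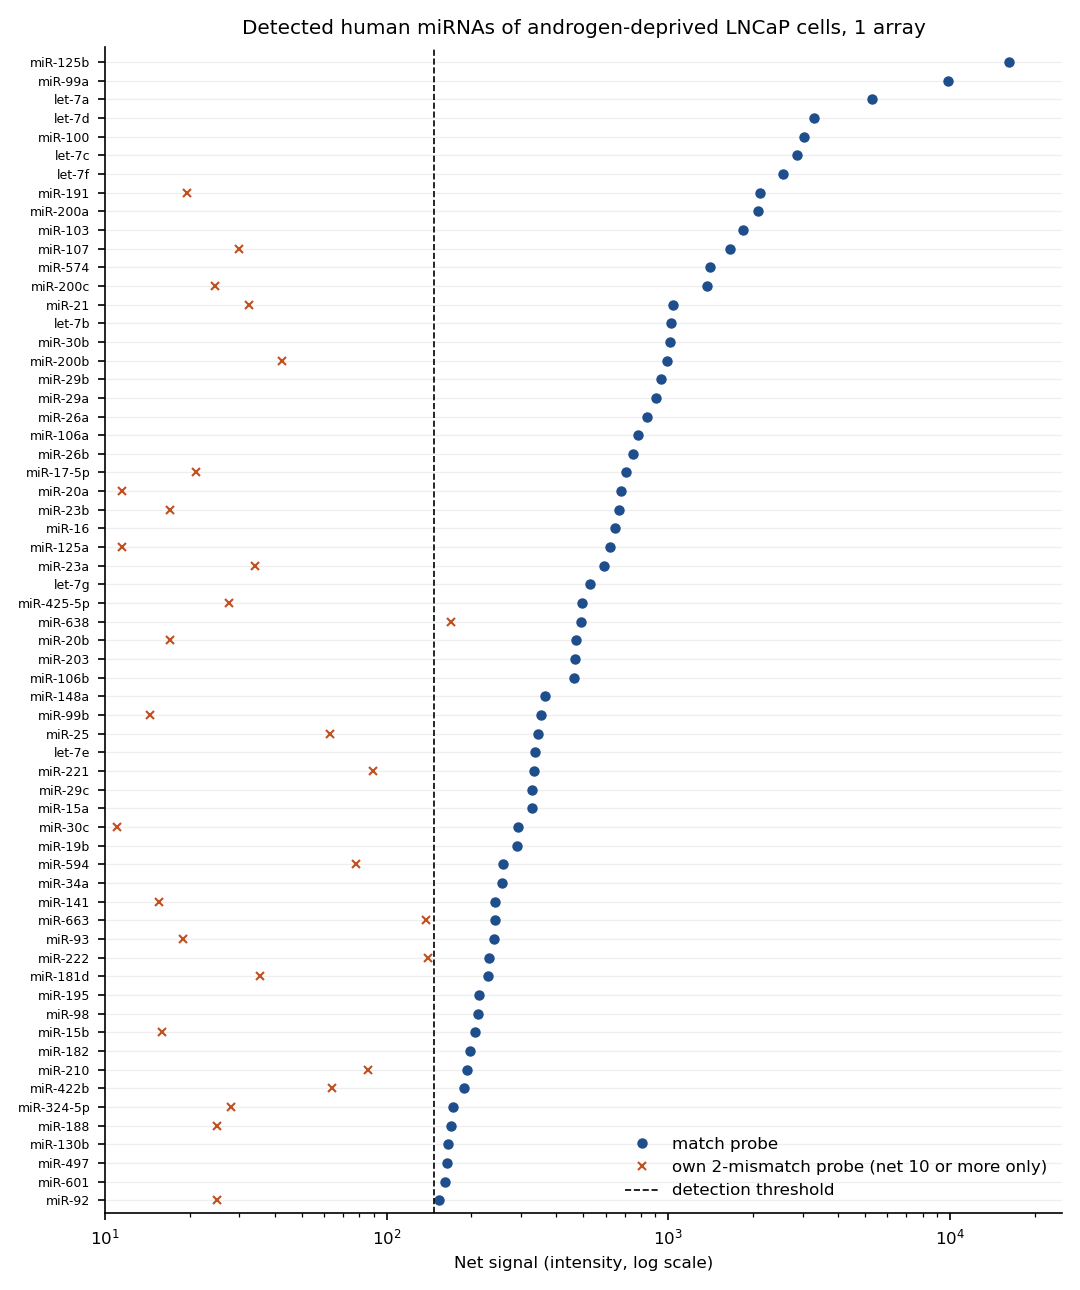
Net signal on a log scale (x axis) of the 62 detected human miRNAs in order (y axis); filled circles are match probes, crosses are their own 2-mismatch probes where these have a net signal of 10 or more, and the dashed line is the detection threshold of 146.8. The first 3 miRNAs stand apart from an even decline, and the crosses of miR-222, miR-663 and miR-210 lie nearest to their circles.

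By seed, the 59 matched miRNAs fell into 31 groups, and 13 seeds were shared by more than 1 detected miRNA. These 13 held 41 miRNAs and 76.9% of the signal. Both figures leave out the unmatched miR-30b, at 1015.25, so its family is counted here through miR-30c alone. The miR-125 seed held 19.8%, almost all of it from miR-125b, since miR-125a had 621.75. The let-7 seed held 18.9% over 8 detected members, and the seed of miR-99a, miR-100 and miR-99b held 15.6%, with miR-99b at 353. These shares depended on the background. With normexp they were 12.8% for miR-125, 12.9% for let-7 and 10.2% for miR-99 and miR-100. With no background subtracted they were 7.10%, 7.85% and 5.79%, so that let-7 came before miR-125. Both settings leave a constant in every probe, with normexp an added offset of 50. Such a constant lowers the share of a bright list, and less so for the 9 let-7 probes than for the 2 of miR-125. The seed of miR-103 and miR-107 followed at 4.13% and that of the miR-17 family at 3.94%. These 5 seeds together held 62.3% of the signal.

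The let-7 list had 8 of 9 probes detected, with net signals between 5287.5 for let-7a and 211.5 for miR-98. Let-7g had 525.25 and let-7e 336.25. Let-7i, at 5.5, was not detected. The miR-17 family had 6 of 6 detected within a narrow range, from 240 for miR-93 to 783.5 for miR-106a, with miR-17-5p at 710.5, miR-20a at 682.25, miR-20b at 469.75 and miR-106b at 461.75. In the miR-15 and miR-16 family, which targets BCL2 and cyclins, 5 of 6 were detected, from miR-16 at 644.5 to miR-497 at 164.5. Between them stood miR-15a at 328.5, miR-195 at 212 and miR-15b at 205.25, and miR-424 was at -37.75. The miR-29 family, known to target collagen mRNAs, had 3 of 3 detected, with miR-29c at 329.5.

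Other families were detected in part. Of 5 miR-30 guide strands, miR-30b and miR-30c, at 293, were detected, whereas miR-30d had 115.5, miR-30a-5p 34.5 and miR-30e-5p -64.5. Of miR-23, miR-24 and miR-27, both miR-23 members were detected, miR-23b at 667.25 and miR-23a at 589.25. MiR-27a, at 128.5, miR-24, at 58.25, and miR-27b, at 56.75, were not. In the group of miR-18, miR-19, miR-25 and miR-92, 3 of 9 were detected: miR-25 at 345.75, miR-19b at 290.75 and miR-92 at 153. MiR-148a, at 366, was the detected one of 3 in its family, miR-34a, which p53 induces, at 256.5, of 3, and miR-181d, at 229, of 4. MiR-26b had 749.75, close to miR-26a. MiR-221 and miR-222, both of which repress p27, a brake on the cell cycle, had 332.5 and 231.25. MiR-101, known to target EZH2, was not detected, at 86.75. In all, 50 of the 73 probes in the 19 family lists were detected, against 13.6% of all human probes, and the lists held 85.3% of the signal. The lists were drawn up with earlier results of these data known, so this count is a description.

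**Figure D3:**
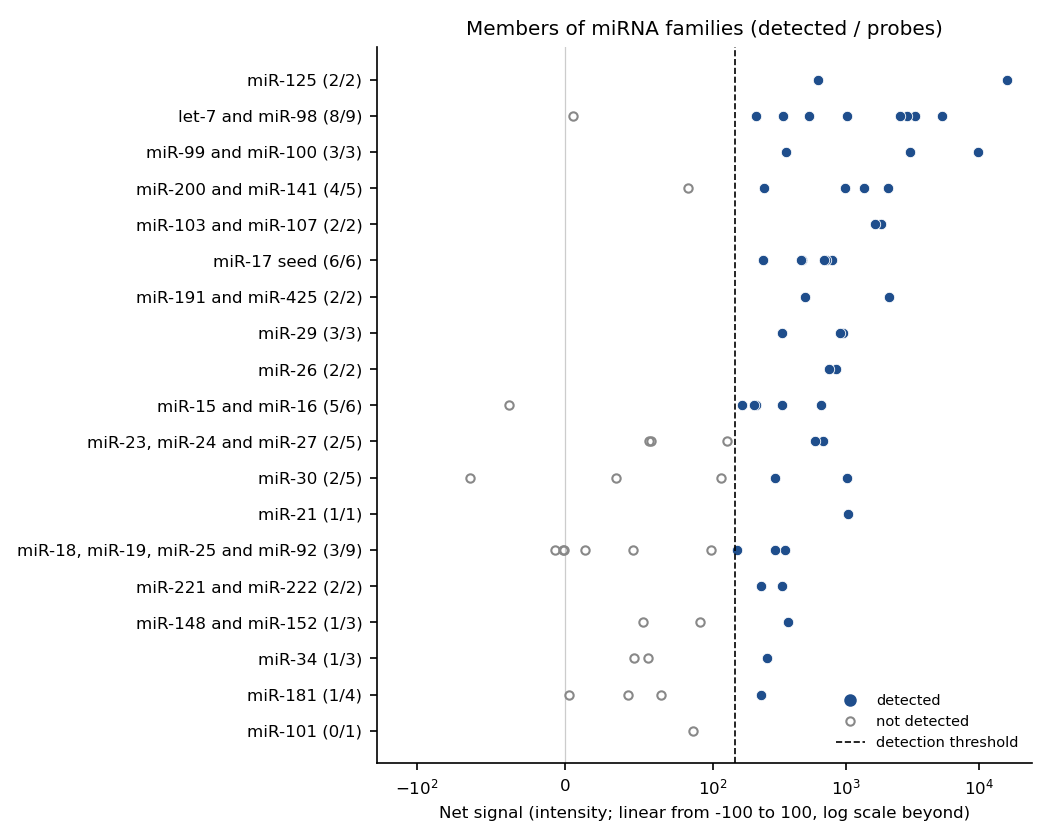
Net signal (x axis, linear between -100 and 100 and log beyond) of each human probe in 19 miRNA family lists (y axis, with detected over all probes in brackets); filled circles are detected, open circles are not, and the dashed line is the detection threshold. The let-7, miR-99 and miR-125 lists reach furthest to the right, and the miR-30 and miR-23, miR-24 and miR-27 lists lie on both sides of the threshold.

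Members with near-identical sequences often had unequal signals. Over the bases they share from the 5′ end, 9 pairs of detected miRNAs differed at 1 position. In 6 of these the fold difference in net signal exceeded 1.44-fold, the median of same-named probes. Where both were detected, same-named probes differed by up to 2.23-fold, so differences smaller than that lie within their range. The probes of miR-203, of which the mouse one was not detected, differed 4.55-fold. Of the pairs below, only let-7a and let-7e differed by more than that. Positions are counted from 1 at the 5′ end, and each substitution is written with the brighter miRNA's base first. Let-7a exceeded let-7e (U9G) 15.7-fold, let-7f (G12A) 2.06-fold and let-7c (A19G) 1.85-fold. Let-7c exceeded let-7b (A17G) 2.79-fold. MiR-99a exceeded miR-100 (U16A) 3.24-fold, and miR-29a exceeded miR-29c (C10U) 2.75-fold. The 3 pairs within the spread were miR-103 and miR-107 (G22C) at 1.11-fold, miR-23b and miR-23a (A19U) at 1.13-fold, and miR-106a and miR-17-5p (A1C) at 1.10-fold. How much of a member's signal comes from its relatives was not tested.

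Each human probe has a copy with 2 mismatched bases, which gives a measure of specificity against 2 mismatches. Binding of relatives that differ at 1 position, such as let-7a and let-7c, cannot be tested by it. For the 20 brightest miRNAs these copies lay at background, with net signals between -65 and 42.5, at most 4.28% of the match probe. MiR-125b had -35.5 on its mismatch probe, miR-99a -47 and let-7a -28.5. Over all 62 detected miRNAs the mismatch copies had a median of 2, and none exceeded its match probe. By this measure specificity was lower for 7 miRNAs whose mismatch copy exceeded 25% of the match probe. MiR-222 had 231.25 against 140.5 on its mismatch probe, miR-663 243 against 138, miR-210 193.25 against 86 and miR-638 488.5 against 169.5. The other 3 were miR-422b, at 187.75 against 64, miR-594, at 259 against 78, and miR-221, at 332.5 against 89.5. MiR-638 was the only detected miRNA whose mismatch copy passed the detection threshold itself. With the own mismatch copy as background, miR-222, miR-663, miR-210, miR-422b, miR-188, miR-324-5p and miR-92 were no longer detected, and miR-18a, miR-331 and miR-494 were.

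Base composition went with the mismatch signal more than with the match signal. Across the 59 matched miRNAs, GC content and mismatch net signal had a Pearson r of 0.67 and a Spearman rho of 0.54. GC content and log2 net signal of the match probe had an r of -0.22 and a rho of -0.29. The probes share 1 array and 1 labelling, and miRNAs are not independent replicates. MiR-663 and miR-638 were the most GC-rich, at 90.9% and 80% GC, and without them r for the mismatch signal was 0.50. The last base, to which the cited labelling method joins the dye, was compared as well. The median net signal was 948.6 for 14 miRNAs ending in A, 475.1 for 22 ending in U, 468.2 for 16 ending in G and 293 for 7 ending in C.

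Some genes of detected miRNAs lie together. With genes no more than 10000 bases apart taken as neighbours, 43 of the 62 detected miRNAs fell into 25 groups that hold at least 1 detected and 1 other measured miRNA, and in 15 of these every measured member was detected. Over all groups, with or without a detected member, and leaving out undetected star and -3p probes, these were 43 of 61 detected miRNAs with a matched gene, against 127 of 316 undetected ones, or 40.2%. A miRNA with several gene copies, such as let-7a, let-7f, miR-29b or miR-16, stands in more than 1 group. Its signal cannot be assigned to any of them, so the number of groups with every member detected counts some signals repeatedly. The neighbours miR-99a and let-7c had 9827.25 and 2859.5, miR-191 and miR-425-5p had 2118.25 and 492.5, and miR-200c and miR-141 had 1374 and 243. Members of 1 cluster thus differed several-fold in signal. In the cluster of miR-99b, let-7e and miR-125a the signals were closer, at 353, 336.25 and 621.75, as they were in that of miR-25, miR-93 and miR-106b within MCM7, at 345.75, 240 and 461.75.

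In 10 of the 25 groups some members were not detected. The cluster of miR-200b, miR-200a and miR-429 had 992, 2075 and 83.25. In the miR-17-92 cluster, miR-17-5p, miR-20a, miR-19b and miR-92 were detected, and miR-18a, at 99, and miR-19a, at -6.75, were not. With the own mismatch signals subtracted, the calls of miR-92 and miR-18a changed places. MiR-19b and miR-92 are also encoded in the X-linked cluster of miR-106a, so their signals cannot be assigned to 1 cluster. MiR-182 had 197.75, beside 137.25 for miR-183 and 30.25 for miR-96. Each of these clusters is known to be transcribed as 1 precursor. The X-linked cluster of miR-188 had 169.75 for miR-188, against -0.5 to 118.25 for miR-532, miR-362, miR-501, miR-660 and miR-502. MiR-181d had 229 and its neighbour miR-181c had 3.

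**Figure D4:**
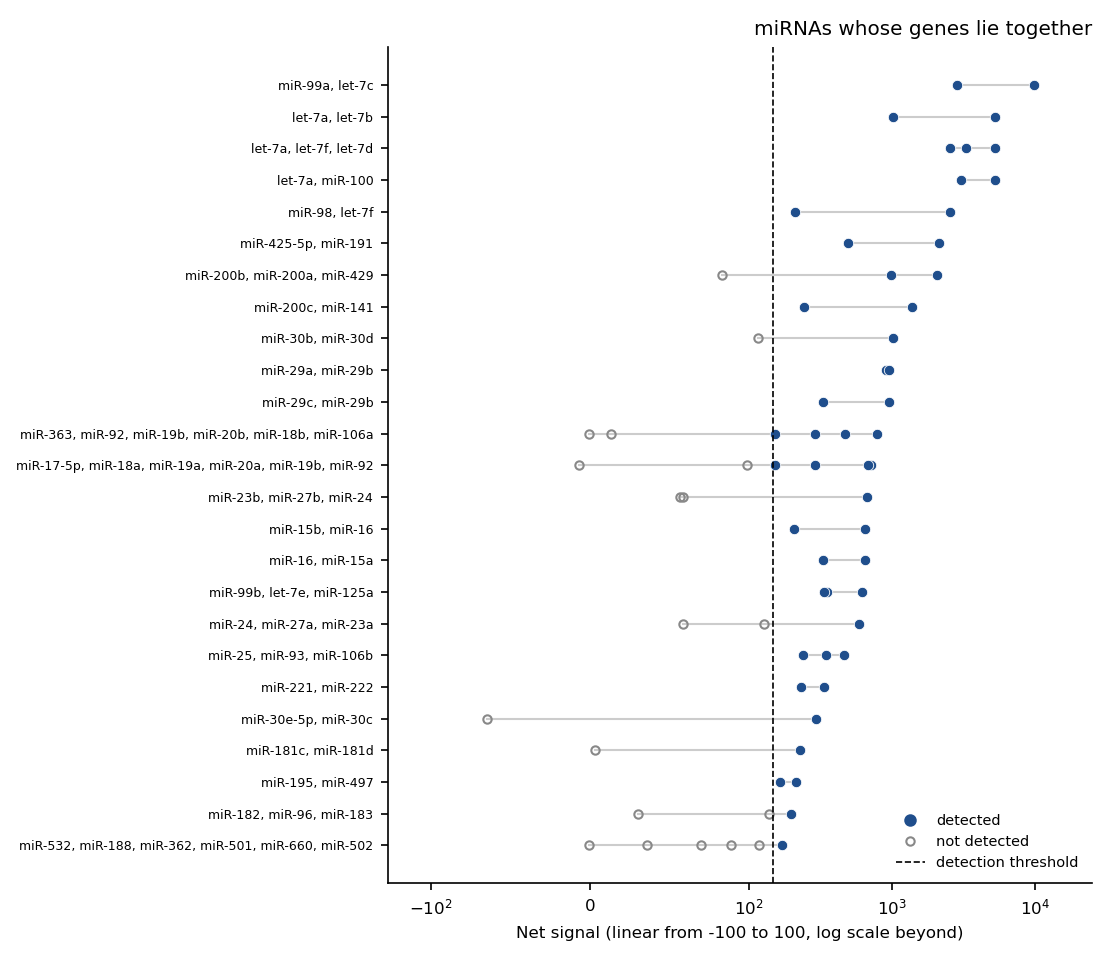
Net signal (x axis, linear between -100 and 100 and log beyond) of measured miRNAs in 25 groups whose genes lie within 10000 bases of each other (y axis, members named); filled circles are detected, open circles are not, grey lines span a group, and the dashed line is the detection threshold. The groups with let-7a or miR-99a lie wholly to the right of the threshold, and 10 groups reach to its left. A miRNA with several gene copies is drawn in each of its groups with the same signal.

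Both arms of a precursor could be recognised by name, through a star or through -5p and -3p, in 42 pairs. Arms under unrelated old names were not paired. None of the 42 had both arms detected, and 6 had 1. The 13.6% detected over all human probes is a share of single probes and not of pairs. At that share few if any of 42 pairs would have both arms detected. The detected arm was miR-191, at 2118.25 against -10.25 for miR-191*. MiR-200a had 2075 against 60.5 for miR-200a*, miR-17-5p 710.5 against 66.75 for miR-17-3p, and miR-425-5p 492.5 against 82.5 for miR-425-3p. MiR-182 had 197.75 against -92 for miR-182*, and miR-324-5p 171.5 against 43.5 for miR-324-3p. Of the 28 probes named with a star, the mark of the less abundant arm, 0 were detected by this threshold, against 13.6% of all human probes, and the highest, miR-518c*, had 97.25. Among them only miR-191*, miR-200a* and miR-182* have another arm that was detected, so for the rest the count does not compare arms.

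The markers of cell types were read against the 13.6% detected over all human probes. Of 11 epithelial markers, 6 were detected: miR-200a, miR-200c, miR-200b, miR-203 at 466.75, miR-141 and miR-182. Among the others, miR-183 lay just under the threshold, and miR-375, described in luminal prostate cells, had 97. MiR-205, a marker of basal cells, had 11.75. Of 8 blood probes 0 were detected, with miR-155 highest at 57, miR-486 at 22.75 and miR-144 at -5, and with miR-223 at -85 and miR-451 at -64. Of 6 stromal or endothelial probes 0 were detected, with miR-126 highest at 47.25, miR-143 at 21.75, miR-199a at 20.5 and miR-145 at -70.5. None of 6 muscle probes was detected, with miR-206 at 34.75, miR-208 at -24.25 and miR-499 at -25 highest, and the liver marker miR-122a had 24.5. None of 10 neuron probes was detected, with miR-129 at 95.25, miR-128b at 70.75 and miR-128a at 41.5 highest. The 8 probes of the pluripotent cell list were led by miR-372 at 52.5, miR-302c at 43.5 and miR-302a at 42.5, all below the threshold. In the imprinted cluster on chromosome 14, 0 of 42 were detected, with miR-433 at 121.75, miR-494 at 115.75 and miR-432 at 71.25 highest. In the primate cluster on chromosome 19, 0 of 37 were detected, with miR-512-5p at 80, miR-526b at 67.25 and miR-512-3p at 55.5 highest. The detected markers were all from the epithelial list, and 4 of these 6 are of the miR-200 and miR-141 family described above. In lists of 10 probes or fewer, 0 detected is not far from the 13.6% over all human probes. The lists were drawn up with earlier results of these data known, so the counts are a description and do not test cell identity.

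**Figure D5:**
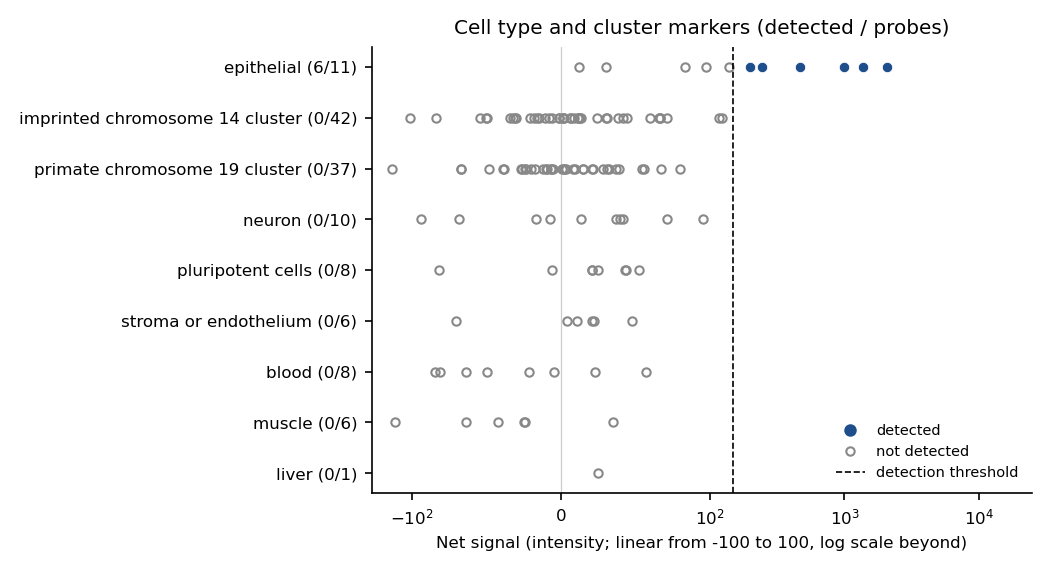
Net signal (x axis, linear between -100 and 100 and log beyond) of human probes in 9 marker lists (y axis, with detected over all probes in brackets); filled circles are detected, open circles are not, and the dashed line is the detection threshold. Only the epithelial list has detected members, 6 of 11.

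Detection went with the number in a miRNA's name, which follows the order of naming. Of 8 let-7 probes 7 were detected, and of 54 miRNAs numbered below 100, 24. From 100 to below 200 it was 15 of 78, or 19.2%, and from 200 to below 300, 7 of 28. From 300 to below 500, 4 of 100 were detected, and of 187 numbered 500 or more, 5, or 2.67%. Those 5 were miR-574, miR-638, miR-594, miR-663 and miR-601, of which 3 are among those with a mismatch copy above 25% of the match probe. MiR-601 had 160.75 against -13.5 on its mismatch probe.

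The 393 miRNAs not detected had a median net signal of 4 and a scaled MAD of 49.7, against 48.9 for the mismatch probes, and their own mismatch copies had a median of -5. Since the threshold was set from the mismatch probes, it fixes part of this likeness. Of them 180, which is 39.6% of all human probes, had a net signal of 0 or less (115 with the median of the human probes below the human median as background), and 213 lay between 0 and the threshold and held 11.1% of the summed signal. Among 389 with a mismatch value, match and mismatch probes had a Pearson r of 0.55 and a Spearman rho of 0.56, over probes of 1 array with nearly shared sequences, and the mismatch probe was the brighter in 160. The lowest were miR-1, at -133.75, and miR-516-3p, at -142. Just above the threshold stood miR-188 at 169.75, miR-130b at 165.25, miR-497 at 164.5, miR-601 at 160.75 and miR-92 at 153. Just below stood miR-361 at 140, miR-183 at 137.25, miR-320 at 136.75, miR-608 at 129.25 and miR-622 at 129. Absence of detection is a statement about this array's background and not about absence from the cells.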

How the data were processed

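Only the array of untreated cells was used. Its deposited table gives, per the file headers, the mean signal of each probe, which is a linear intensity. For image software and earlier background steps, the entry is "not given in the sources used here". In the authors' value table each filled cell is that intensity minus 371.5, with 56 of 455 human probes filled, all at about 1.51 times that constant or more. The 604 mismatch probes of all species set the background, and 4 listed at 0 were treated as missing, which gave a median of 372. Ranks, shares, families and neighbours were computed in Python 3.11.15 with pandas 2.3.3. Normexp (limma 3.58.1, R 4.3.3), with an offset of 50 added to every probe, was run as an alternative. No test between groups was made, since 1 array stands alone. Arms of old names were matched to RefSeq names by hand. Gene neighbours and spans come from a RefSeq table of GRCh38.p14, in which 418 of 455 human probes were matched and strand is not given. Members and lists were chosen with earlier results of these data known. Named miRNAs are the brightest 20, detected family members, the top of each marker list, the 5 on each side of the threshold, low-specificity probes, detected arms and the 5 least alike same-named pairs; others, among them let-7i, miR-205, miR-375 and miR-424, were chosen after their values were seen.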

Additional observations from a re-analysis of the deposited data

Results flagged for a closer look

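Probes outside the human match set also gave signal above the detection threshold, and each value is its net signal. Among mouse probes without a detected human namesake these were miR-706 at 807, miR-467b at 800, miR-467a at 595.5, miR-669c at 312.5, miR-431 at 230.25, miR-140* at 159 and miR-468 at 154.5. Among rat probes they were miR-352 at 449, miR-151* at 251 and miR-140* at 204.75. The human probe of miR-431 stood at -30.75. The viral probes miR-rL1-15 and miR-BART16 had 216.75 and 172.5. Mismatch copies above the threshold were those of human miR-335 at 225.5, whose match probe had -71.5, and human miR-638 at 169.5, and of mouse miR-297 at 165 and miR-129-5p at 160.5. Control probes above it were the spikes Bio C at 1562.75, Bio B at 1275.5 and Lambda 8 at 192.5, whose names carry the tag neg, and 1 glycine tRNA probe at 298.2. The U6 probe, whose name carries the tag pos like that of this tRNA probe, had -10. In all, 4 of 17 control probes passed the threshold. The sources of these signals were not tested.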

How the results depend on the processing

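The number of detected miRNAs, 62, lay between 45 and 92 under thresholds at 5 scaled MADs, at the 95th and 99th percentiles of the mismatch probes and at the filled cells of the authors' table, and under the other backgrounds. With normexp and with no background subtracted it was 62 by construction, since the order of the probes and the threshold were kept. It was 37 when a mean signal, background included, of at least 2 times that of the own mismatch probe was also asked for. Among those left out were miR-638, at a net signal of 488.5 against 169.5, and miR-15a, at 328.5 against 0. In net signal, 2 of the 62 had a mismatch copy above 50% of the match probe. Of the 5 other backgrounds, only the own mismatch signal could change the order of the probes, since the rest preserve it by construction. The brightest 10 were the same miRNAs under all 5, in each with miR-125b, miR-99a and let-7a first. Their share, 57.8%, was 58.4% with the own mismatch signal subtracted, 37.8% with normexp, 21.3% with no background subtracted, 53.4% with the median of the human probes below the human median subtracted, 57.7% with mismatch probes at 0 kept and 65.0% over detected miRNAs only. In the same order, without the setting on probes at 0, the let-7 share of 18.9% was 19.4%, 12.9%, 7.85%, 17.7% and 21.3%. Under normexp and no subtraction the let-7 share exceeded that of miR-125, at 12.8% and 7.10%. Both settings leave a constant in every probe, which favours the list with more probes. The 180 miRNAs at or below 0 became 115 with those dimmer human probes as background, and 393 were not above the threshold. Normexp and no subtraction give no such count. The spread of same-named probes was 0.25 in place of 0.53 without subtraction. A neighbour window of 100000 bases, chosen after seeing the data, gave 46 in place of 43 detected miRNAs in groups. No paired analysis was possible because 1 array is described and no groups were compared.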
